A study of Mus musculus with 65 samples.

Results

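Cytosolic ribosomal protein genes encode the proteins of the large (60S) and small (40S) subunits of the ribosome that translates messages made in the nucleus. They were taken as the rows of the count table whose symbol follows the Rpl, Rps or Rplp naming pattern with a number, or is Rpsa, without the Rps6ka and Rps6kb kinases. The rule found 89 of 55292 rows, 53 named for the large and 36 for the small subunit. Of these, 83 are protein-coding and 6 are pseudogenes in GENCODE M21 (Rpl32l, Rpl6l, Rps12l1, Rps3a2, Rps3a3 and Rps4l). A member was called measured with at least 5 counts per 1000000 counts (CPM) in the higher genotype, which 81 members reached, 34 small and 47 large.

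The study compared single outer hair cells (OHCs), the sensory cells of the cochlea that amplify sound, at postnatal day 10 from mice with and without a conditional knockout of the zinc finger gene Casz1. The WT group holds 48 cells from mice of genotype Slc26a5FlpO/+; Rosa26FSF-H2BEGFP/+, in which FlpO recombinase expressed from the prestin gene Slc26a5 turns on a nuclear green fluorescent reporter. The CKO group holds 17 cells from mice that carry the same 2 alleles and, in addition, Atoh1Cre/+ and Casz1flox/flox. Fluorescent cells were picked by hand after enzymatic digestion, and full-length cDNA was made without molecular identifiers. Cre is present in the CKO group alone, so effects of Cre and of Casz1 loss cannot be told apart. The cells are those that survived to day 10 and still drove FlpO from Slc26a5. The labels name no animal, so each genotype counts as 1 sample and no test was run. Intervals of a level or ratio cover counting error only. Those of a median over members cover the spread between members, which are not independent replicates.

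Ribosomal proteins are made in near-equal numbers, and a free surplus is degraded, so their messages are commonly studied as 1 co-regulated set. Most of these messages begin with a run of pyrimidines, the TOP motif, through which the mTORC1 kinase and the binding protein Larp1 control their translation. In the cochlea, loss of cytosolic protein synthesis is known as an early event in hair cells exposed to aminoglycoside antibiotics, to which OHCs are more vulnerable than inner hair cells.

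Start sites of members were read from RefSeq promoters on GRCm38.p6, where 64 of 89 members matched. An unbroken run of at least 6 bases, each C or T, covered the start base on the sense strand in 20 of the 64 members (31.3%) and in 2293 of 27025 genes with a promoter in the table (8.48%). The 5 named members with such a run are shown because a TOP message begins with a run of pyrimidines. In each of the 5, part of the run lies before the annotated start base, so not all of its letters are in the annotated message. Each window holds 12 bases before the annotated start base and 18 from it on, and capitals mark the run. They are Rpl7a at chr2:26910795-26910824 (plus strand), Rpl38 at chr11:114668568-114668597 (plus), Rplp2 at chr7:141447639-141447668 (plus), Rps9 at chr7:3704029-3704058 (plus) and Rps15a at chr7:118116130-118116159 (minus).
Rpl7a: CCCTCTTCTTTCTTTCTCCagcagccgagc
Rpl38: ggaagcctcgTTCTTTCCCCgttctcttcg
Rplp2: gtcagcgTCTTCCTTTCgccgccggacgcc
Rps9: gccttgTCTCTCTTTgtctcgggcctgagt
Rps15a: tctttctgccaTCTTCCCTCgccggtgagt
The run of Rpl7a is 21 bases long and starts before the window, against 9 or 10 bases in the other 4. For comparison, Rplp0 at chr5:115559455-115559484 (plus) and Rpl41 at chr10:128549151-128549180 (minus) have no such run at the annotated base.
Rplp0: ttcgggtttcgaggaccgcctggttctcct
Rpl41: acgggccggctcggaagtgacgacaccgag
In the full promoter window of 250 bases before to 50 after the start, on both strands, CCGGAAG was found in 26 of 64 members (40.6%; 9.93% of all genes), AAGATGGC in 6 (9.38%; 3.19%) and TATAAA in 8 (12.5%; 15.7%). None of these 3 strings contains another. These matches describe letters in a window and not binding or start site use.

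The cells held 7458126 to 17107710 counts in WT and 8239671 to 15320549 in CKO. All 65 cells had counts of the OHC markers Slc26a5, Ocm, Ikzf2, Strip2 and Lbh. Their sum ran from 14611 to 64268 CPM in WT and from 32779 to 90541 CPM in CKO. Most of it was Ocm, at 36668 and 49172 CPM pooled. Strip2 was lower in CKO (1410 and 977 CPM), and Slc26a5, Ocm, Ikzf2 and Lbh were higher. The hair cell markers Myo7a, Pou4f3, Gfi1 and Myo6 summed to 1878 to 4137 CPM in WT cells and 1087 to 3476 CPM in CKO cells. Each of them was lower in CKO in pooled level. Casz1 itself stood at 53.3 CPM in WT (0, 31.98 and 182 as lowest, median and highest cell) and 46.2 CPM in CKO (0, 41.7 and 154). Counts summed over the whole gene do not check the deletion, so CKO means cells labelled CKO. Markers of other cells were uneven. Summed glial markers ranged from 0 to 459 CPM in WT and 0 to 220 CPM in CKO, and supporting cell markers from 0 to 402 and 0 to 183 CPM, with Sox2, Prox1 and Mbp among those at 0 in CKO. Inner hair cell markers ranged from 0 to 1036 and 0 to 307 CPM, neuron markers from 0 to 897 and 0.224 to 559 CPM, and mesenchyme markers from 0 to 546 and 0 to 117 CPM. Macrophage markers ranged from 0 to 188 and 0 to 73.4 CPM, and red blood cell markers from 0 to 83.2 and 0 to 49.2 CPM. Endothelium markers went the other way, from 0 to 35.6 CPM in WT and 0 to 176 CPM in CKO. Their part in the results was not tested. The WT cells fall into 4 stretches of label numbers: cells 1 to 11, 12 to 24, 25 to 45 and 46 to 48. The stretches differ in depth, in the ribosomal protein share, in Rps3a2 and in many other genes. The labels do not say what these stretches are, and they were drawn after seeing the data. Differences between stretches given below are thus description and may in part reflect how the stretches were drawn. Xist without Y-linked counts was found in 9 WT cells, 8 of them among cells 1 to 11, and in 15 CKO cells; 37 WT and 0 CKO cells had the reverse, and 2 in each group had neither.

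Ribosomal protein genes together took 2.18% of counts in WT and 1.92% in CKO, a log2 ratio of CKO over WT of -0.18. Per cell the share ran from 1.31% over a median of 2.21% to 3.73% in WT and from 1.51% over 1.97% to 2.52% in CKO. The groups overlapped: 15 of 48 WT cells lay above the highest CKO cell and 7 below the lowest, and the CKO cell was higher in 35.9% of the 816 pairings of a CKO cell with a WT cell.

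The direction differed with the stretch of WT cells used. The share was 2.49% in WT cells 1 to 11 (1.96%, 2.34% and 3.48% as lowest, median and highest), 2.72% in cells 12 to 24 (2.31%, 2.62% and 3.73%), 1.804% in cells 25 to 45 (1.31%, 1.65% and 2.80%) and 1.74% in cells 46 to 48 (1.43%, 1.72% and 2.06%). The CKO cells were thus below WT cells 1 to 11 and 12 to 24, with log2 ratios of -0.38 and -0.50, and slightly above cells 25 to 45 and 46 to 48, at 0.089 and 0.14. A CKO cell had the higher share in 10.2%, 1.36%, 66.1% and 68.6% of pairs with the 4 stretches in that order. Of the 17 CKO cells, 16 lay below the lowest of WT cells 12 to 24. Those 13 WT cells were also the shallowest, with a median of 8423620 counts and 6659 detected genes, against 11761305 counts and 7681 genes in cells 25 to 45 and 12269271 counts and 7417 genes in CKO. WT cells 1 to 11, whose share was above that of CKO, were the deepest, with a median of 14216070 counts and 7807 genes. Spearman's rho between the share and total counts was -0.17 over the CKO cells. It was 0.63, -0.16 and 0.24 over WT cells 1 to 11, 12 to 24 and 25 to 45. The part that depth plays in the share was not tested.

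**Figure D1:**
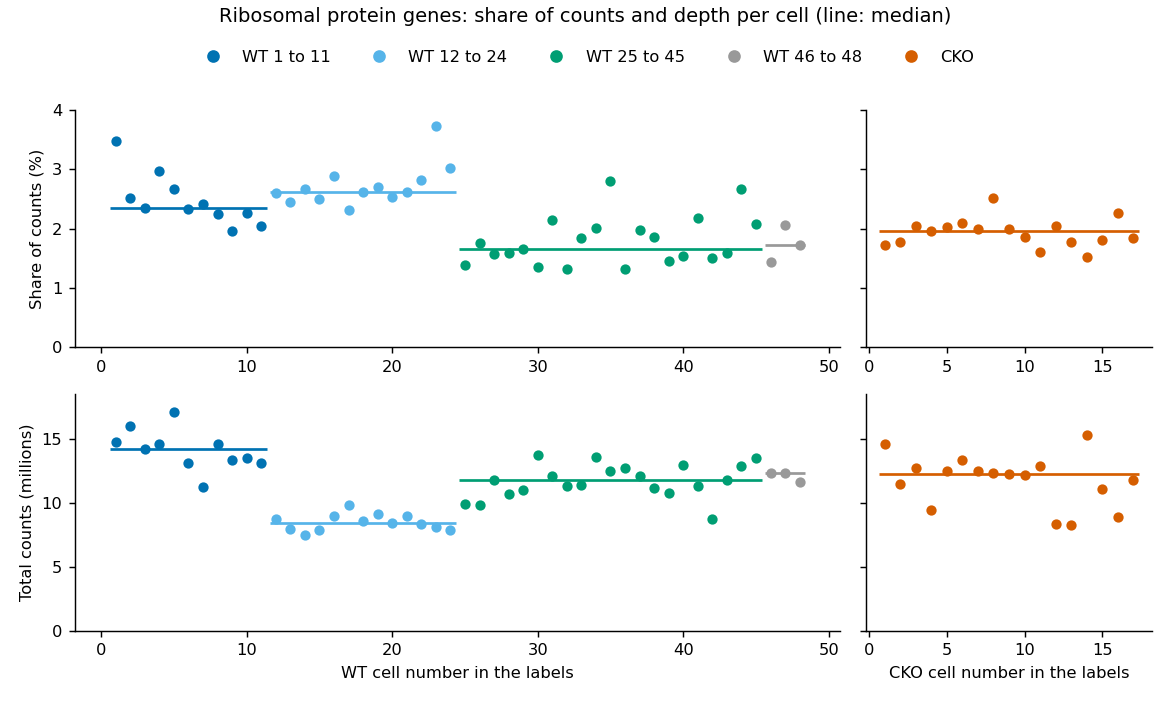
Share of counts in ribosomal protein genes (top, percent) and total counts in units of 1000000 (bottom) for each WT cell (left) and CKO cell (right) by label number; lines are medians of a stretch of WT cells or of the CKO cells. The share steps down between WT cells 24 and 25, from a median of 2.62% to 1.65%, and the CKO median of 1.97% lies between them.

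The mitochondrially encoded share was read beside the ribosomal protein share. Its median was 6.46%, 8.10%, 5.80% and 4.53% in the 4 WT stretches and 4.76% in CKO. The medians of both shares did not follow 1 order: the CKO cells lay below WT cells 25 to 45 in the mitochondrially encoded share and above them in the ribosomal protein share. Spearman's rho between both shares was 0.56 over 17 CKO cells. It was 0.59, 0.69 and 0.61 over the 11, 13 and 21 WT cells numbered 1 to 11, 12 to 24 and 25 to 45. Both shares of a cell come from the same library and have the same total. With the mitochondrially encoded genes taken out of the total, ribosomal protein genes held 2.34% in WT and 2.02% in CKO (log2 -0.21).

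Member by member, 16 of 81 were higher and 65 lower in CKO, with a median log2 ratio of -0.14. Its order-statistic interval, -0.21 to -0.094, covers the spread between members and not that between animals. Over all 10842 genes measured the same way the median was 0.0092, 50.4% were higher and 49.6% lower. The ratios were small: 73 of 81 members lay within 0.5 log2 units of 0. At least 2-fold lower were 3 members, Rps3a2, Rpl7l1 and Rplp1, and 0 were at least 2-fold higher. Of all measured genes 14.5% were 2-fold lower, 15.1% 2-fold higher and 29.5% either. No member separated the groups without overlap, as for all genes (0%). In 2 members, among them Rplp1 at 82.6%, the WT cell was higher in at least 75% of pairs (0.775% of all genes); the CKO cell reached that mark in 0 members (0.756% of all genes), and Rpl6 came highest at 63.4%. Small subunit members had a median of -0.19 (7 higher, 27 lower of 34) and large subunit members -0.13 (9 higher, 38 lower of 47).

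These counts also turned with the stretch of WT cells. Against WT cells 1 to 11 the median was -0.39 with 9 of 80 members higher, beside 52.3% of all genes higher. Against cells 12 to 24 it was -0.48 with 6 of 80 higher (53.9% of all genes). Against cells 25 to 45 it was 0.14 with 55 of 81 higher (49.6%), and against cells 46 to 48 it was 0.19 with 57 of 81 higher (54.4%). Between WT cells alone, 76 of 81 members were higher in cells 12 to 24 than in cells 25 to 45. The median log2 ratio over the 81 was 0.63 (order-statistic interval over members 0.58 to 0.70). Over 10807 genes that median was -0.10 and 46.3% were higher. In median size this difference among WT cells was larger than that between the genotypes. The stretches were drawn after seeing the data and differ in the ribosomal protein share, so this gap may in part be built in. Rps3a2 and Rpl7l1 were among the 5 members that went the other way. At least 2-fold apart in CKO were 3 of 80 members against WT cells 1 to 11 (40.1% of all genes), 5 of 80 against cells 12 to 24 (44.3%), 3 of 81 against cells 25 to 45 (35.6%) and 8 of 81 against cells 46 to 48 (55.1%).

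**Figure D2:**
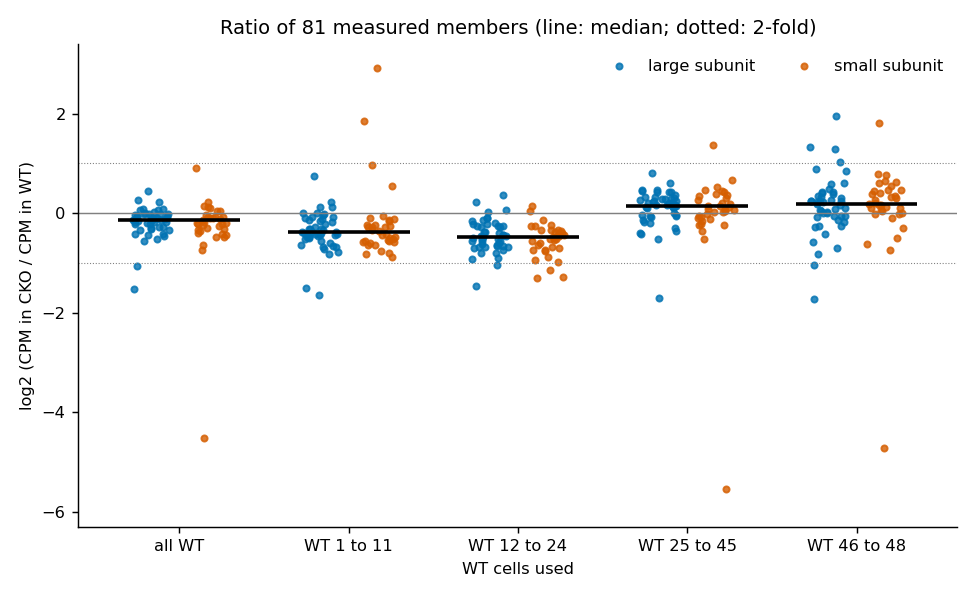
Log2 ratio of CPM in CKO over CPM in WT for the 81 members measured over all WT cells, with large (blue) and small (orange) subunit members side by side, against all WT cells and against each stretch of WT cells; black lines are medians and dotted lines mark 2-fold. The medians are -0.14, -0.39, -0.48, 0.14 and 0.19 from left to right when each set is taken over the members measured there, so the set lies below 0 against WT cells 1 to 24 and above 0 against the later WT cells.

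Some members kept 1 direction against all 4 WT stretches. In CKO, 11 of 81 were lower against each (among them Rpl10a, Rpl12, Rpl15, Rpl31, Rpl7l1, Rplp1, Rps19, Rps25 and Rps7), beside 13% of all measured genes. Another 3 were higher against each (Rpl13a, Rpl6 and Rps4l), beside 22.4% of all measured genes. The share of lower members is near the background. Some of these ratios are close to 0, such as Rpl10a at -0.030 and Rpl31 at -0.029 against WT cells 25 to 45 and Rpl6 at 0.026 against cells 12 to 24. With TMM factors, 10 of these 11 stayed lower and 2 of the 3 stayed higher against each stretch, without Rpl31 and Rpl6. With median-of-ratios factors all 11 and all 3 kept their direction; both scalings of the stretches were added after seeing the data. Taken as a share of the summed member counts, which removes the common shift, 10 were lower against all 4 stretches and 14 higher. Those 14 included Rpl3, Rpl6, Rpl19, Rpl21, Rps9, Rps14 and Rps23. On this scale 0 members were 2-fold lower and 0 were 2-fold higher against all 4 stretches. Shares of a sum move against each other, so some must rise where others fall. No share over all genes was worked out on this scale, so these counts have no background beside them.

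The stalk is the flexible arm of the large subunit that recruits elongation factors, built of Rplp0 and of the acidic proteins Rplp1 and Rplp2. Rplp1 (chromosome 9, 61913284 to 61914542, minus strand, GRCm38) was the member with the largest share of pairs in 1 direction, the WT cell being higher in 82.6%. It stood at 153, 461 and 1570 CPM in the lowest, median and highest WT cell and at 104, 264 and 509 CPM in CKO. The ranges overlapped, with the CKO cells in the lower part of the WT range or below it. The pooled levels were 567 and 273 CPM, a log2 ratio of -1.06 (-1.07 to -1.04, exact interval). Against the 4 WT stretches, at 772, 754, 393 and 307 CPM, the ratio was -1.50, -1.46, -0.53 and -0.17, so it passed 2-fold against WT cells 1 to 11 and 12 to 24 alone, and without WT cell 4 it was -0.98. Its partners differed less. Rplp0 had 419 CPM in WT (62.3, 425 and 884) and 335 CPM in CKO (123, 311 and 648), and it was 2-fold higher in CKO against WT cells 46 to 48 (1.03) and lower against the other 3 stretches. Rplp2 had 176 CPM in WT (58.4, 158 and 439) and 167 CPM in CKO (83.3, 167 and 299).

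Rpl5 and Rpl11 bind the 5S RNA and, outside the ribosome, the p53 regulator Mdm2. Rpl5 stood at 0, 293 and 847 CPM in WT cells and at 74.6, 245 and 659 CPM in CKO cells, with overlapping ranges and a log2 ratio of -0.34. The ratio was -0.67 against WT cells 12 to 24 and 0.26 against cells 46 to 48. Rpl11 stood at 0, 84.3 and 382 CPM in WT and at 0, 81.2 and 241 CPM in CKO, with a ratio of -0.076.

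Measured large subunit members other than Rplp1 and Rpl7l1 differed by less than 2-fold over all cells. Rpl30, which lies at the interface of the subunits, stood at 96.8 CPM in WT and 67.4 CPM in CKO (-0.52), and Rpl10a, part of the movable L1 stalk, at 159 and 116 CPM (-0.45). Rpl30 was higher in CKO against WT cells 46 to 48 (0.61) and lower against the other stretches. The 8 proteins around the exit tunnel had a median of -0.12, with 2 higher (Rpl19 and Rpl39) and 6 lower. Against the 4 stretches 1, 1, 6 and 5 of the 8 were higher, with medians of -0.36, -0.45, 0.16 and 0.21.

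Among small subunit members several were lower in CKO by less than 2-fold. Rps19, whose human counterpart is the gene most often mutated in Diamond-Blackfan anemia, stood at 159, 356 and 789 CPM in WT and at 114, 257 and 461 CPM in CKO. Its ratio was -0.49, and it was negative against each stretch. Rps26 was at 106 CPM in WT and 76.7 CPM in CKO (-0.47), and at -1.14 against WT cells 12 to 24 but 0.21 against cells 25 to 45. Of 17 measured genes on the list for that anemia, 2 were higher and 15 lower (median -0.23), beside 49.6% of all measured genes lower. Against the 4 stretches 1, 0, 11 and 12 of the 17 were higher, with medians of -0.44, -0.47, 0.044 and 0.11, so this count also turned with the WT cells used.

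The highest ratios of measured members were those of Rps4l, at 0.91, and Rpl13a, at 0.44 between levels of 7.05 CPM in WT and 9.57 CPM in CKO. Rpl13a had a count in 7 of 17 CKO cells, and the median CKO cell had 0 CPM. The median cells of the 4 WT stretches had 1.41, 3.68, 0.10 and 3.17 CPM, so the medians went the other way. The ratio of Rpl13a was 0.062 without CKO cell 10 and 0.60 without WT cell 38. Rpl6, a large subunit protein, stood at 4.39, 157 and 479 CPM in WT cells and at 79.0, 233 and 366 CPM in CKO cells, with wide overlap and a ratio of 0.27 that was positive against all 4 stretches (0.13, 0.026, 0.47 and 0.49). Rpl21 had 143 CPM in WT and 167 CPM in CKO (0.23), with -0.38 against WT cells 1 to 11 and 0.80 against cells 25 to 45. Rps9, Rps12, Rps23, Rpl38 and Rpl39 lay between 0.077 and 0.14. The 4 X-linked members, Rpl10, Rpl36a, Rpl39 and Rps4x, had ratios of -0.012, -0.17, 0.077 and -0.12.

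Genes with a paralog were read separately, since a paralog can replace its partner in some tissues. Rps27l, a paralog of Rps27 known as a p53 target, stood at 178 CPM per kilobase of merged exons in WT and 183 in CKO, beside 207 and 195 for Rps27. Rpl22l1 stood at 14.5 and 14.3 CPM per kilobase beside 23.04 and 22.2 for Rpl22. The genes known for expression in striated muscle (Rpl3l) and testis (Rpl10l and Rpl39l) were at the limit of detection: Rpl3l had no count in either group, which allows up to 0.00548 CPM in WT and 0.0150 CPM in CKO, Rpl10l had 3 counts in WT and 0 in CKO, and Rpl39l had 1 and 0.

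Other paralogs were present in some cells and absent from others. Rpl7l1, which is known from early steps of large subunit assembly, had a count in 39 of 48 WT cells and 9 of 17 CKO cells, at 0, 16.8 and 262 CPM in WT and 0, 0.0803 and 138 CPM in CKO. At least 5 CPM were reached in 25 WT and 5 CKO cells. The pooled levels were 58.9 and 20.4 CPM (log2 -1.53, exact interval -1.58 to -1.48), with -1.65, -0.68, -1.69 and -1.73 against the 4 stretches and -2.22 without CKO cell 8. Rps4l, a copy on chromosome 6 (148354656 to 148355598) of the X-linked Rps4x, had a count in 25 of 48 WT and 11 of 17 CKO cells. It stood at 0, 0.0839 and 146 CPM in WT cells and at 0, 44.3 and 177 CPM in CKO cells, 29.2 and 54.7 CPM pooled (0.91). The ratio was 0.97, 0.043, 1.36 and 1.804 against the 4 stretches, and a pair of cells favoured CKO in 59.9% of cases. Only 6.67% of 75-base windows of Rps4l also occur in another annotated transcript, against 52.9% for Rps4x.

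Rps3a2 was higher in WT cells 25 to 45 than in WT cells 1 to 24 and in CKO. Whether genotype plays a part in the level of Rps3a2 was not tested. This pseudogene on chromosome 14 (88123017 to 88123808, minus strand, GRCm38) is a copy of Rps3a1, a protein of the 40S platform, and 86.4% of its 75-base windows also occur elsewhere in the annotated transcripts. It reached at most 3.15 CPM in the 24 WT cells numbered 1 to 24 and 3.16 CPM in the 17 CKO cells. All 21 WT cells numbered 25 to 45 lay above, from 5.74 over a median of 57.2 to 103 CPM, with 20 of them at 29.9 CPM or more. The last 3 WT cells had 21.9, 1.05 and 78.5 CPM. The pooled log2 ratio of -4.51 (-4.70 to -4.34) was therefore -5.53 and -4.71 against cells 25 to 45 and 46 to 48, -0.47 against cells 12 to 24 and 1.86 against cells 1 to 11, the last between levels under 5 CPM (1.26 and 0.347). Rps3a1 did not rise in the same cells: it stood at 366 CPM in the median WT cell 25 to 45, 718 in cells 12 to 24 and 449 in CKO.

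Another copy, Rps3a3, was set by single cells, with 5.18 CPM in WT and 6.07 CPM in CKO. Its ratio of 0.23 was -0.72 without CKO cell 11 and 0.78 without WT cell 22.

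**Figure D3:**
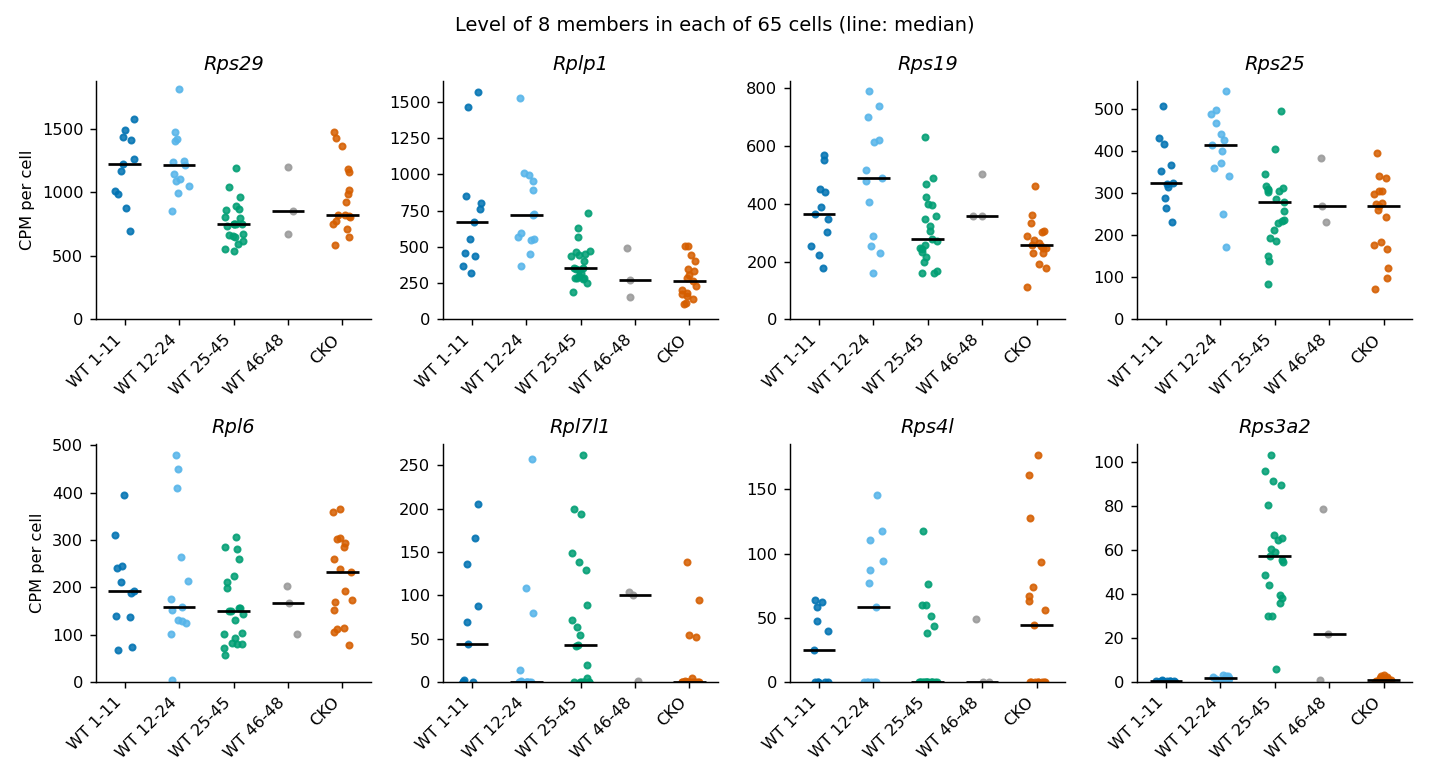
CPM of 8 members in each cell, by stretch of WT cells and for CKO, on linear axes from 0; points are cells and black lines medians. The medians of Rps29 and Rplp1 are higher in WT cells 1 to 24 than in the later WT cells, Rps19 and Rps25 overlap widely between the genotypes, Rpl7l1 and Rps4l are near 0 in many cells, and Rps3a2 is above 5 CPM in all of WT cells 25 to 45 and in 0 CKO cells.

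Levels of the members relative to each other were compared per kilobase of merged exons, pooled over cells. Although the proteins are made in near-equal numbers, the counted messages were not: the 90th percentile of the 81 members lay 14.3-fold above the 10th in WT and 14.2-fold in CKO. These 81 include pseudogenes such as Rps3a2 and paralogs such as Rpl7l1, so the span is not that of members that every ribosome contains alone. With the length of the principal coding transcript, and thus over the 78 coding members, the span was 9.004-fold in WT. With the 45 members that share no exon with another gene it was 17.9-fold. The highest were Rps29 (1435 CPM per kilobase in WT, 1368 in CKO), Rplp1 (1137 and 547), Rpl36 (721 and 639), Rpl41 (674 and 678) and Rps3a1 (513 and 448). Rps29, a zinc finger protein of the 40S head, was also the member with most counts, 4.56% of all member counts in WT and 4.94% in CKO, from 537 over 974 to 1813 CPM in WT cells and from 589 over 822 to 1475 CPM in CKO cells. The 10 members with most counts held 31.9% of member counts in WT and 33.1% in CKO, and the top 20 held 51.0% and 51.6%. The order of members hardly differed between the genotypes, with a Spearman's rho of 0.98 across the 81 members (across genes, which are not independent replicates). It was 0.97 between WT cells 12 to 24 and 25 to 45.

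The low end held members that every ribosome contains. Rpl13a stood at 3.33 CPM per kilobase in WT and 4.53 in CKO, Rps15a at 15.9 and 14.1, and Rpl23a at 16.3 and 16.1. Rpl24 and Rps10 did not reach 5 CPM, with counts in 7 and 13 of 48 WT cells and in 2 and 5 of 17 CKO cells. The largest Rpl24 value was 35.4 CPM in 1 WT cell, the next 3.70 CPM. In the annotation, 46.99% of the exon bases of Rpl24 lie in exons of Gm28037 on the same strand and 35.4% of those of Rpl13a in Gm45713, and both of these genes had 0 counts in all cells. For Rps10, 20.6% lie in RPS10-NUDT3, which is not among the rows of the table, and for Rpl23a 59.7% lie opposite exons of Tlcd1 (0.936 CPM in WT and 0 in CKO). How the authors' counting treated reads in shared exons or with several matches is not given in the sources used here. Low levels of Rpl24, Rpl13a, Rps10 and Rpl23a may thus not be low levels of their messages. Across the 81 members the level per kilobase had a Spearman's rho of 0.046 with the share of windows found elsewhere and -0.47 with exon length. Exon length is also the divisor of that level, so the second value is in part built in.

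**Figure D4:**
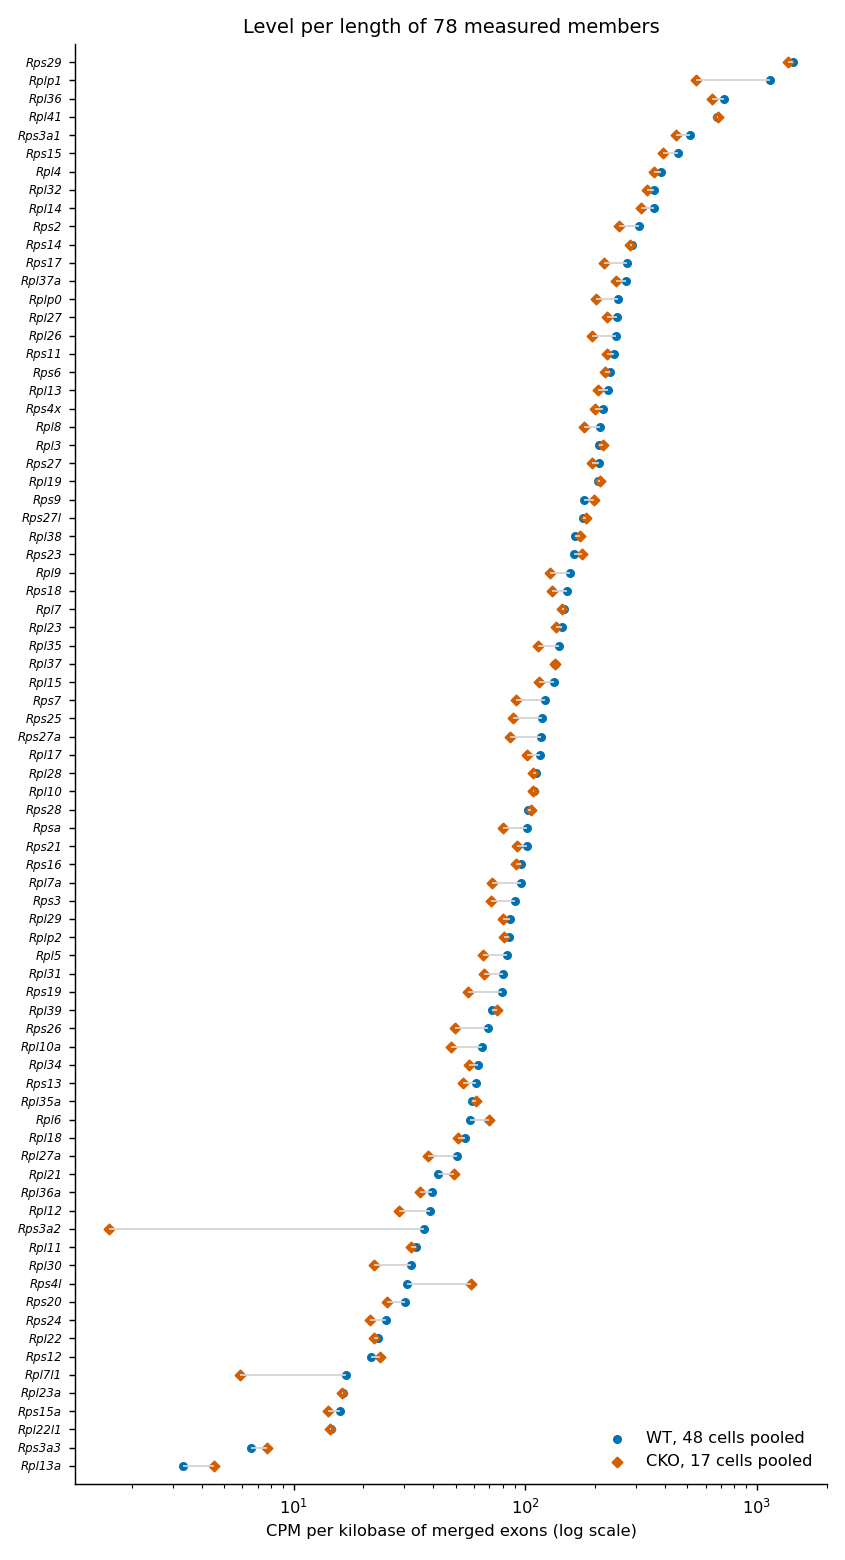
Pooled CPM per kilobase of merged exons (log scale) for 78 of the 81 measured members, sorted by the WT level, with WT as circles and CKO as diamonds joined by a line. Rps29 leads in both genotypes and Rpl13a is lowest in WT, while long lines at Rps3a2, Rpl7l1, Rplp1 and Rps4l show the members whose levels differ most.

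Summed per kilobase, small subunit members stood at 0.748 of large subunit members in WT and 0.794 in CKO. Per cell the quotient ran from 0.557 over 0.749 to 0.903 in WT and from 0.636 over 0.789 to 0.956 in CKO. The ranges overlap for most of their length, and the 4 WT stretches gave 0.728, 0.752, 0.760 and 0.783. In plain counts, small subunit members held 41.8% of member counts in WT and 41.7% in CKO.

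Members differed in how evenly cells carried them. A count in every cell was found for 65 members. Among these the interquartile range over the median across all cells was lowest for Rpl41 (0.38), Rpl13 (0.43) and Rps25 (0.43), and highest for Rpl7a (1.16), Rps26 (1.16) and Rpl21 (1.11). Rpl41, the smallest ribosomal protein, stood at 434, 765 and 1812 CPM in WT cells and at 398, 746 and 1483 CPM in CKO cells.

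Within 1 set of cells, the CKO cells or a WT stretch, the 65 members varied together only weakly. The median Spearman's rho over 2080 pairs of members was 0.067 in the CKO cells, and 0.19, 0.071 and 0.24 in WT cells 1 to 11, 12 to 24 and 25 to 45. Among 959 other genes with a count in every cell it lay between 0.0055 and 0.012 in these sets. All values of 1 cell share its library and depth. Of the 65 members, Rpl32 had the highest minimum of rho with the rest of the set over these 4 sets of cells, with values between 0.45 and 0.76.

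Genes that act with the ribosome were read from lists. Of the ribosomal proteins that the naming rule leaves out, Fau, the precursor of the small subunit protein eS30, stood at 115 CPM in WT and 131 in CKO, and Rack1 at 290 and 217, while Rpl36al was not measured. Of 5 elongation factors 4 were lower, beside 49.6% of all measured genes. The median of the 5 was -0.50, and -0.70, -0.38, -0.42 and -0.30 against the 4 WT stretches. Eef1a1, which brings transfer RNA to the ribosome, stood at 993, 1759 and 3646 CPM in WT cells and at 703, 1072 and 2642 CPM in CKO cells. The CKO cell was higher in 16.5% of pairs, and the ratio of -0.72 was negative against all 4 stretches (-0.95, -0.77, -0.60 and -0.24). Eef2, which moves the ribosome along the message, went from 968 to 684 CPM (-0.50; -0.70, -0.38, -0.45 and -0.30), and Eef1g from 433 to 306 CPM (-0.50). Eef1d was the exception, at 103 and 135 CPM (0.38). In 14 other TOP messages 4 were higher and 10 lower (median -0.19), beside the same 49.6% of all measured genes lower. Among the 14 were Eif4b (226 and 146 CPM, -0.63), Eif3e (162 and 106, -0.61) and, in the other direction, Eif3k (193 and 237, 0.29). Against the 4 stretches 6, 3, 6 and 8 of the 14 were higher.

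Of 30 genes for factors that build the ribosome, 16 were higher and 14 lower (median 0.0035). Against the 4 stretches 21, 14, 16 and 9 were higher, with medians of 0.17, -0.067, 0.060 and -0.34. Over all cells 3 were at least 2-fold lower, Polr1b (14.6 and 4.56 CPM), Rrs1 (11.01 and 4.01) and Gar1 (6.39 and 2.43), each with 0 CPM in the median cell of both groups. None of the 30 was at least 2-fold higher. Of all measured genes 14.5% were at least 2-fold lower and 15.1% at least 2-fold higher. The ratios of Polr1b and Rrs1 were positive against WT cells 1 to 11 and 46 to 48. Of 14 measured mTORC1 genes 9 were higher and 5 lower (median 0.062), and 10, 9, 7 and 9 were higher against the 4 stretches. At least 2-fold higher were 2 of the 14, Tsc1 and Rps6kb2, beside 15.1% of all measured genes. At least 2-fold lower were 2, Tsc2 and Eif4ebp1, beside 14.5%. Both counts are near the background. Tsc1 and Tsc2 encode the inhibitor subunits of the pathway. Tsc1 stood at 10.8 CPM in WT and 32.7 in CKO (1.60) and Tsc2 at 100.3 and 35.03 (-1.52). Tsc1 had a count in 22 of 48 WT and 9 of 17 CKO cells, with 0 and 0.0803 CPM in the median cells. Tsc2 stood at 0, 80.8 and 424 CPM in WT cells and at 0, 0 and 224 CPM in CKO cells. Its sign turned against WT cells 46 to 48, as did that of Eif4ebp1, and both genes had 0 CPM in those cells. The kinase gene Rps6kb2 stood at 28.3 and 62.0 CPM (1.13), with 0.0859 and 23.9 CPM in the median cells. Eif4ebp1, an inhibitor of cap-dependent translation, stood at 11.5 and 4.80 (-1.26). It had a count in 12 of 48 WT and 3 of 17 CKO cells, with 0 CPM in both median cells. For ribosome rescue and quality control, 4 of 7 were higher and 3 lower (median 0.23), and 6, 5, 4 and 2 were higher against the 4 stretches.

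Rows named as pseudogenes of ribosomal proteins are not members. A count was found in 209 of 319 such rows, summing to 366 CPM in WT and 299 CPM in CKO, 1.65% of the member counts. Rpl3-ps1 was the largest, at 75.1 and 45.6 CPM.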

How the data were processed

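Counts per gene in 65 single OHCs were deposited by the authors as 1 table of whole numbers, unnormalized. Per the submitters' processing notes, HISAT2 2.2.1, StringTie 2.2.1 and featureCounts 2.0.1 were used with mm10; of the annotation, the strand setting and reads with several matches nothing is given in the sources used here. A shared protocol text speaks of inner hair cells and induced OHCs; titles and design, which name OHCs, were followed. Replicate numbers are label numbers of cells.

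CPM is the sum of a gene's counts in a genotype over the summed totals. Ratios carry exact conditional (Clopper-Pearson) intervals at 95%; a group with no count was set to 3 counts over the group. Without molecular identifiers reads may be copies of 1 molecule, and these intervals cover counting error only. Order-statistic intervals of a median over members, also at 95%, treat members as independent, which they are not. They do not cover differences between animals. Ties in pairs of cells count as 0.5. No cell was left out and no doublet caller was run, since cells were picked singly. Positions, exon lengths and overlaps come from GENCODE M21 (GRCm38), and windows of 75 bases were compared with all its transcripts. Xist and Y patterns need at least 10 counts. The ratio script was tested on simulated data. Python 3.11.15, pandas 2.3.3 and scipy 1.17.1 were used; edgeR 4.0.16 (TMM) and DESeq2 1.42.0 (median-of-ratios over 1024 genes) gave other scalings only.

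Named with values are, among measured members, the 10 highest and 10 lowest ratios, the 5 highest and 5 lowest per kilobase, stalk, 5S and paralog members, the 3 most and 3 least even, X-linked members, all 2-fold members, and up to 4 genes of each other list; Rpl24, Rps10, Rpl32 and a few others were added after their values were seen. Members, lists and this rule were chosen with earlier results of these data known. Alternatives were the level of a group, the scaling, the total, the cells, the low-value filter, the members and the exon length. Protein sequences were not used here. Some genes that the rule names are left out of the text and the plots, though they count in all totals.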

Additional observations from a re-analysis of the deposited data

How the results depend on the processing

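The log2 ratio of the ribosomal protein share, -0.18 over all cells, was -0.19 with the mean and -0.17 with the median of per-cell CPM, -0.23 with TMM and -0.14 with median-of-ratios factors, -0.21 and -0.18 with totals lacking mitochondrially encoded genes or the 10 genes with most counts, -0.15 without the cell with most counts in each group, -0.19 with thinned cells, -0.13 with cells of at least 10000000 counts, -0.37 with Xist-pattern cells, -0.19 without paralogs, -0.17 without members that share exons, -0.19 with pseudogene counts added, and -0.38 with WT cells 1 to 11, -0.12 with 12 to 45 and 0.14 with 46 to 48. Leaving out 1 cell gave -0.21 to -0.16. The median over members was -0.36 with Xist-pattern cells, -0.39 with WT cells 1 to 11, 0.19 with WT cells 46 to 48, and -0.18 to -0.11 without 1 cell. The 3 members at least 2-fold apart became 6 with deep cells, 5 with Xist-pattern cells, 8 against WT cells 46 to 48, 5 with the filter at 1 CPM, and 2 to 4 without 1 cell. The quotient of small over large subunit levels between CKO and WT, 1.06, was 1.00 with per-cell medians, 1.05 without the cell with most counts, 1.06 with deep cells, 1.10 with Xist-pattern cells, 1.09 with WT cells 1 to 11, 1.05 with 12 to 45 and 1.02 with 46 to 48, 1.05 without paralogs, 1.07 with 4 genes added, 1.12 without shared exons, 1.06 with pseudogene counts, and 1.05 to 1.08 without 1 cell. Chosen after seeing the data, WT cells 12 to 24 gave -0.50, -0.48, 5 and 1.06 for the 4 results in that order, and WT cells 25 to 45 gave 0.089, 0.14, 3 and 1.05. The span of levels per length, 14.3-fold, was 15.9-fold with the longest transcript. Added later, it was 9.004-fold with the principal transcript of the 78 coding members and 17.9-fold without shared exons. Rps3a2 turned from -4.51 to 1.86 against WT cells 1 to 11. The scalings moved the median of all genes by under 0.1. The cause of these changes was not tested. No paired analysis was possible because a shared number ties no WT cell to a CKO cell and the design allows no test.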
